A study of Bos grunniens with 36 samples.

Results

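The caseins are the main proteins of ruminant milk, and the 4 casein genes CSN1S1 (alpha-s1 casein), CSN1S2 (alpha-s2 casein), CSN2 (beta casein) and CSN3 (kappa casein) were followed here in the mammary gland of the yak (Bos grunniens) from late pregnancy into lactation. The genes were found by their symbols in the probe annotation of the array, which makes them 4 of 20110 genes or unnamed transcripts, and 18 of the 34997 probes of the deposited table. Each gene was read from its probe with the highest mean over all 36 arrays, and its other probes served as a check.

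Alpha-s1, alpha-s2 and beta casein carry clusters of phosphorylated serines that bind calcium phosphate, and kappa casein, which is glycosylated, coats and stabilises the micelles in which all of them travel in milk. The secretory (luminal) epithelial cells of the gland make them, and prolactin, acting through its receptor, JAK2 and STAT5, with glucocorticoids and insulin, is known to switch the genes on in rodents and cattle. In cattle the casein genes lie in 1 cluster, and casein mRNA is among the most abundant of the lactating gland.

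The samples were biopsies of parenchyma from 4 female yaks, each taken at 9 times: at day -30 and day -15 before calving (late pregnancy) and at day +1, +15, +30, +60, +120, +180 and +240 after it (lactation), with 1 array per animal and day. The same number is the same animal throughout, no treatment is labelled, and all groups share the same collection, in which the left and right rear glands were sampled in turn, so that side is not recorded array by array. The array was a cattle design hybridised with yak RNA, in 1 colour. A level is the log2 of a spot's processed signal less the 75th percentile of its array, so 1 unit is a 2-fold difference relative to that percentile.

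The array itself sets limits that touch each result. The 75th percentile of the processed signal ran from 1029 to 6450 units over the 36 arrays, and the probes well above background from 68.6% to 89.3%. All 8 arrays before calving were bright, between 4853 and 5752, while the medians of the 7 days after calving lay between 1393 and 4079. Each slide held the 4 arrays of 1 day, so slide and day cannot be told apart. Days and animals are those of the table's columns. Each column equalled 1 scanner file less a constant, but that file was deposited under another sample for 36 of 36 columns, under the same day for 9 and under the same animal for 0. The offset was the same for every column in the order of the samples, with the first columns matching the files of the last samples. In tissue samples of this kind, fewer secretory cells and less casein RNA per cell cannot be told apart.

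All positions are those of the array's annotation on the cattle assembly UMD 3.1, and all 18 probes lie on chromosome 6. The probes of CSN1S1 span 87150928 to 87159049 on the plus strand, those of CSN2 87179761 to 87183043 on the minus strand, those of CSN1S2 87275399 to 87280890 on the plus strand, and those of CSN3 87390632 to 87392673 on the plus strand. CSN2 is thus read from the strand opposite to the other genes.

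The following probe sequences, from the scanner files and 5′ to 3′, show what was hybridised. The first pair overlaps on CSN1S1 (chr6:87150928-87152520 and chr6:87150932-87152524, both over a splice junction), and capitals mark the bases at which they differ, C18G and G41A, with positions counted from 1 at the 5′ end of A_73_P244615. The next probes read CSN1S2 (chr6:87275399-87275458) and CSN2 (chr6:87181421-87181480), each within 1 exon. They are not the probes behind the levels below, which are A_73_P266861 for CSN1S2 and A_73_116854 for CSN2. The last line gives the first 30 bases of the CSN3 probe used throughout (chr6:87390632-87390691).
A_73_P244615: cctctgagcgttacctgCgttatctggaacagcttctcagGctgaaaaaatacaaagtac
A_73_P393463: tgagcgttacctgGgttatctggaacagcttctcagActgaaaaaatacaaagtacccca
A_73_P438506: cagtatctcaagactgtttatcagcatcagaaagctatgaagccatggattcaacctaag
A_73_P045606: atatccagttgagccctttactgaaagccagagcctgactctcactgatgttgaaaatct
A_73_P107731: agcccacctgagatcaacacagtccaagtt
The sequence with G at the first of these positions and A at the second, A_73_P393463, gave the higher level on 36 of 36 arrays, by 0.55 ± 0.19 on the log2 scale (SD over arrays). It is the probe used for CSN1S1 below. Both sequences are the array's cattle designs, and which of them yak transcripts carry was not tested.

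Levels of different probes are not ranked against each other here, since each probe binds with its own strength. The log2 levels of CSN1S2, the most phosphorylated of the calcium-binding caseins in cattle, in animals 1 to 4 were 2.91, 1.17, 4.14 and 2.58 at day -30 and 3.31, 3.24, 2.42 and 3.74 at day -15. At day +1 they were 5.70, 4.75, 5.42 and 6.70, and at day +15 7.72, 7.85, 7.96 and 8.49. All 4 animals were thus above every pregnancy array at day +1, and higher again at day +15, with no overlap between these days. The levels at day +30 were 6.93, 6.04, 3.42 and 7.78, and at day +60 7.77, 8.69, 8.56 and 7.76. Later they were 6.82, 8.17, 6.57 and -0.52 at day +120, 5.49, 7.55, 7.63 and -0.65 at day +180, and 3.17, 8.47, 8.55 and 7.50 at day +240. From day +30 on, single arrays stood far below the rest of their day: animal 3 at day +30, animal 4 at day +120 and +180, and animal 1 at day +240.

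The levels of CSN1S1, the alpha-s1 casein, were 5.23, 4.28, 5.69 and 4.39 at day -30, 5.30, 5.33, 4.87 and 5.14 at day -15, and 6.18, 5.46, 6.64 and 6.88 at day +1. At day +15 they reached 8.12, 8.51, 8.28 and 8.96. The arrays of day +1 overlapped those of day -30, through animal 2, but not those of day -15, and day +15 lay above all earlier arrays. The levels were 7.12, 6.16, 4.48 and 8.32 at day +30, 7.99, 8.87, 8.31 and 8.01 at day +60, and 7.83, 8.95, 7.70 and 0.76 at day +120. At day +180 they were 6.54, 8.33, 8.52 and -0.63, and at day +240 4.46, 8.80, 8.65 and 7.61. The same animals and days were low as for CSN1S2.

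CSN2, the beta casein, lay in a narrow range before calving. Its levels were 5.64, 4.84, 5.57 and 4.86 at day -30, 5.21, 5.18, 4.82 and 5.08 at day -15, and 5.93, 5.10, 5.79 and 6.94 at day +1, so that day +1 overlapped both days of pregnancy. At day +15 they were 7.79, 8.18, 8.0 and 8.07, above all earlier arrays and the tightest day of lactation, with an SD of 0.16. They were 7.40, 6.08, 4.03 and 7.60 at day +30, 7.84, 8.16, 8.58 and 7.43 at day +60, and 7.74, 8.74, 7.58 and -0.98 at day +120. The levels at day +180 were 6.65, 7.44, 8.40 and -1.01, and at day +240 4.51, 8.46, 8.11 and 7.27.

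The levels of CSN3, the kappa casein of the micelle surface, were 5.45, 5.64, 5.93 and 4.92 at day -30, 5.61, 5.61, 5.41 and 5.54 at day -15, and 6.42, 5.81, 6.02 and 7.12 at day +1. They were 8.16, 8.52, 8.29 and 9.23 at day +15, were 7.53, 6.28, 5.43 and 8.22 at day +30, and 8.07, 8.94, 8.37 and 8.28 at day +60. Day +1 lay above all of day -15 but overlapped day -30, and day +15 lay above all earlier arrays. At day +120 they were 7.95, 8.95, 7.74 and 4.19, at day +180 7.62, 8.39, 8.52 and 3.73, and at day +240 6.33, 8.77, 8.44 and 7.87. The arrays of animal 4 at day +120 and +180 were the lowest of the 36 for CSN3 too.

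**Figure D1:**
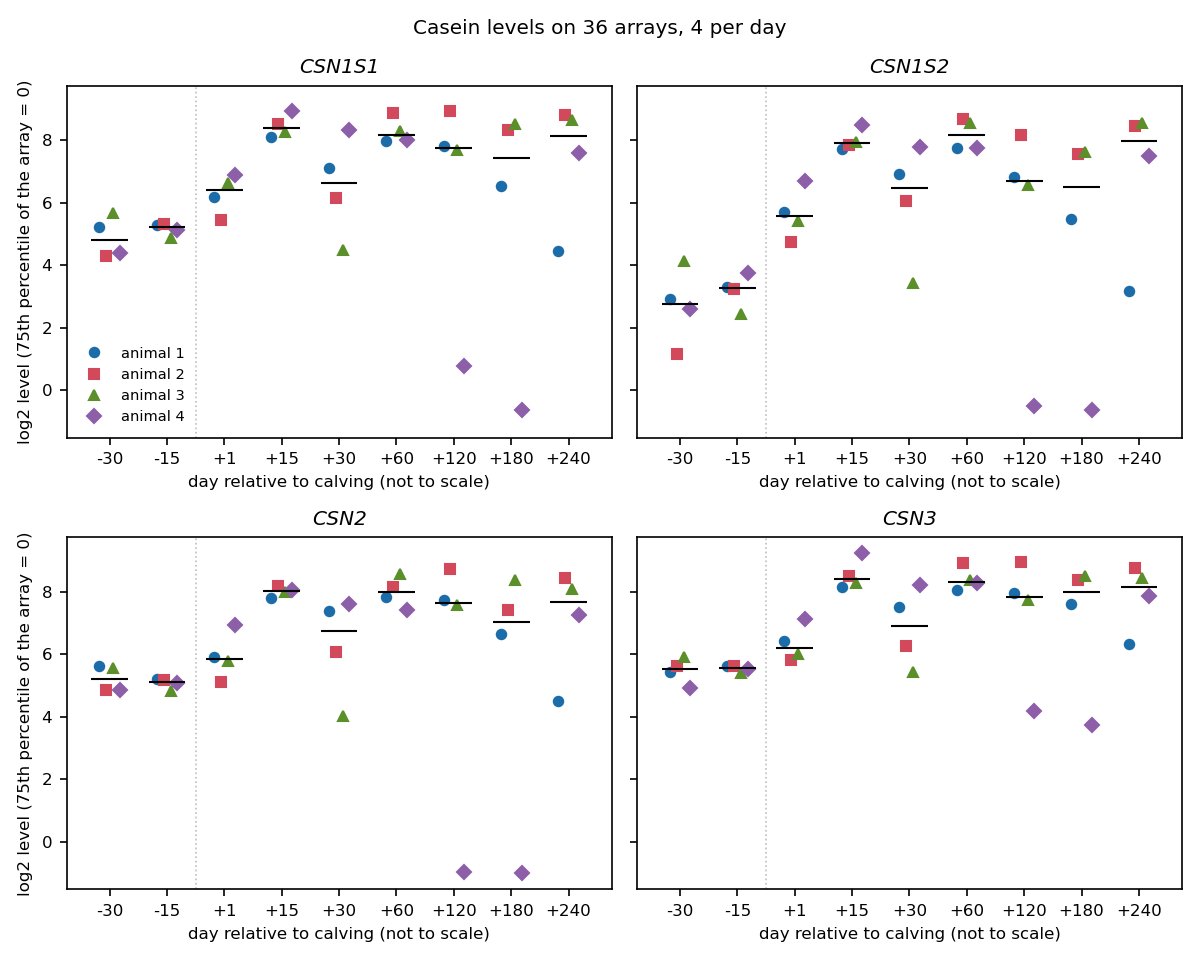
Log2 levels of the 4 caseins (y axis, relative to the 75th percentile of the array) by day relative to calving (x axis, days evenly spaced, dotted line at calving), with 1 point per animal and a bar at the median of 4. All 4 caseins lie higher at day +15 and day +60 than before calving without overlap. For CSN1S1, CSN1S2 and CSN2, 4 arrays between day +30 and day +240 lie far below the rest of their day. For CSN3 the gap is widest for animal 4 at day +120 and +180.

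The day with the lowest median was day -30 for CSN1S1 (4.81), CSN1S2 (2.75) and CSN3 (5.54), and day -15 for CSN2 (5.13). The highest median belonged to day +15 for CSN1S1 (8.40), CSN2 (8.03) and CSN3 (8.41), and to day +60 for CSN1S2 (8.16). At day +15 and day +60 the ranges overlapped for each casein, and the order of these days was not tested. In animal 4 all caseins were highest at day +15 and lowest at day +180, whereas in animal 2 CSN1S1, CSN2 and CSN3 were highest at day +120. The SD of CSN1S1 over the 4 animals was 0.36 at day +15, 1.62 at day +30, 0.41 at day +60, 3.74 at day +120, 4.31 at day +180 and 2.02 at day +240. Animal 4 alone set the spread of days +120 and +180, where the SD of the other 3 animals was 0.69 and 1.09.

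The main contrast, the mean of the 7 days after calving against the mean of the 2 days before, asked whether the caseins differed between lactation and late pregnancy. CSN1S2 was higher by 3.50 ± 0.82 on the log2 scale (SE, 4 animals, limma with day as factor and animal as random block, adjusted p = 0.00164) and CSN3 by 1.96 ± 0.45 (adjusted p = 0.00142). CSN1S1 was at 1.96 ± 0.79 (adjusted p = 0.0510) and CSN2 at 1.49 ± 0.84 (adjusted p = 0.168), and neither passed. So 2 of 4 caseins were called higher, where 16.8% of all features were. The lactation mean was above the pregnancy mean in 4 of 4 animals for each casein, and 23, 24, 23 and 24 of the 28 lactation arrays lay above all 8 pregnancy arrays for CSN1S1, CSN1S2, CSN2 and CSN3.

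Those 2 calls depended on how the brightness of the array was treated. With the log2 of the 75th percentile as a covariate, the change of CSN1S2 was 0.04 (adjusted p = 0.972) and that of CSN3 -0.025 (adjusted p = 0.964), while CSN2 was lower by -1.88 (adjusted p = 0.0366, limma). Under the samples of the scanner files, CSN3 stayed called (1.76, adjusted p = 0.0108) and CSN1S2 did not (2.27, adjusted p = 0.0593). In that record the days before calving hold the columns of animals 1, 2 and 3 at day +1, so that fit compares other periods than the table's. Which record is right could not be settled. Without the arrays of animal 4 at day +120 and +180, which were chosen for their low casein after the data were seen, so that the omission itself raises the change, all 4 caseins were called, with changes of 2.54 for CSN1S1, 4.07 for CSN1S2, 2.12 for CSN2 and 2.27 for CSN3.

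Levels were also set beside the brightness of the array. After calving, 22 arrays had a 75th percentile under 4000, and their CSN3 levels ran from 6.33 to 9.23, with 22 of 22 above every pregnancy array. The other 6 arrays after calving, at 4357 to 6450, held CSN3 levels from 3.73 to 6.28, and only 2 of 6 lay above every pregnancy array. CSN1S2 lay above every pregnancy array on 21 of the 22 dimmer and 3 of the 6 brighter arrays. Of these 6 brighter arrays, 3 were among the 4 arrays low in casein and 2 were of day +1, and the limit of 4000 was set after the data were seen. A level is the signal less this same percentile, so a lower level on a brighter array is in part built into the scale. The covariate above is this same percentile, and it differed between the days before and after calving. That fit therefore cannot tell brightness apart from the change over calving, and the part of brightness was not tested otherwise. The same limit holds for the later values with this covariate.

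**Figure D2:**
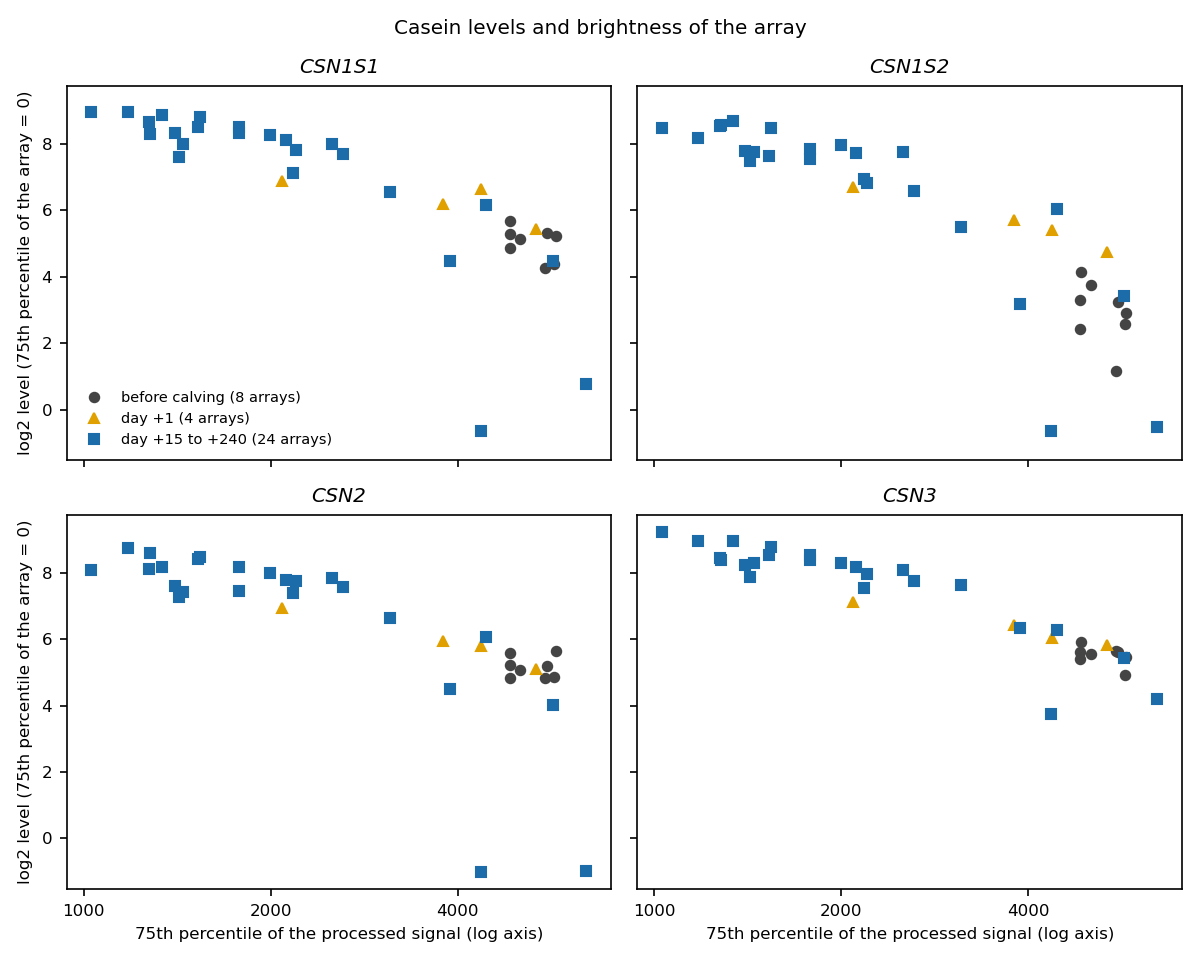
Log2 levels of the 4 caseins (y axis) against the 75th percentile of the processed signal of the same array (x axis, log axis), 1 point per array: 8 before calving, 4 at day +1 and 24 from day +15 to day +240. The y value subtracts the percentile on the x axis, which in part builds in a falling pattern; the arrays before calving lie between 4853 and 5752.

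Before scaling, the processed signals were as follows. The median signal of CSN1S2 was 38736 units at day -30, 192196 at day +1 and 427814 at day +15, and that of CSN1S1 was 168187, 260527 and 602367. The medians of day -30 and day +15 were 198643 and 488634 units for CSN2 and 263313 and 621236 for CSN3. The brightest casein spots came close to the top of the scanner's range, as the spot means lay between 0.277% and 90.5% of the saturation value, the latter for CSN3 at day +60, although 0 spots were marked saturated. At day +15 the CSN3 spots lay at 80.3% to 86.7% of that value. In a fit of the unscaled signals the change between lactation and pregnancy was 2.30 for CSN1S2 (adjusted p = 0.00189) and 0.76 for CSN3 (adjusted p = 0.0185, limma). CSN1S1 was at 0.76 (adjusted p = 0.250) and CSN2 at 0.29 (adjusted p = 0.695), and neither was called, while the median of all features moved by -1.24.

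Across all 9 days, limma's F test called CSN1S2 (adjusted p = 0.0210) and CSN3 (adjusted p = 0.0125) and did not call CSN1S1 (adjusted p = 0.211) or CSN2 (adjusted p = 0.409). These 2 of 4 stand beside 42.3% of all features. The F test called 0 caseins when animal 1, 2 or 3 was left out and all 4 when animal 4 was left out, or only its arrays of day +120 and +180.

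The days were then set one by one against day -30. At day +15, CSN1S2 was higher by 5.31 ± 1.45 (SE, limma, adjusted p = 0.0149), about 39.6-fold, and CSN3 by 3.07 ± 0.80 (adjusted p = 0.0116), about 8.39-fold. Both folds are relative to the 75th percentile of the array, whose median was 5633 units at day -30 and 1887 at day +15. The median processed signals rose by less, from 38736 to 427814 units for CSN1S2 and from 263313 to 621236 for CSN3. CSN1S1 was at 3.57 ± 1.39 (adjusted p = 0.0697) and CSN2 at 2.78 ± 1.48 (adjusted p = 0.184). All 4 caseins were higher in 4 of 4 animals with no overlap between the days, which 18% of all features were, and 2 of 4 were called higher against a background of 10.2%. In a fit of these 8 arrays alone, and in one without the arrays of animal 4 at day +120 and +180, all 4 were called. Without animal 1, 2 or 3, 0 were called, and with the brightness covariate 0. In each contrast of days fitted on all arrays, the SE comes from 1 spread shared by all 9 days, not from the days compared. The SD of CSN1S1 was 0.68 at day -30 and 0.36 at day +15, against 3.74 at day +120 and 4.31 at day +180.

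Day +60 gave the same picture. CSN1S2 was higher by 5.50 ± 1.45 (adjusted p = 0.00645) and CSN3 by 2.93 ± 0.80 (adjusted p = 0.00784), while CSN1S1 was at 3.40 ± 1.39 (adjusted p = 0.0638) and CSN2 at 2.77 ± 1.48 (adjusted p = 0.154, limma). Again all 4 caseins had no overlap with day -30 (16.3% of all features), and 2 of 4 were called higher (12.6%). With the brightness covariate CSN1S2 was at 0.34 and CSN3 at -0.026, and 0 were called.

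At day +240 CSN1S2 was higher by 4.23 ± 1.45 (adjusted p = 0.0492) and CSN3 by 2.37 ± 0.80 (adjusted p = 0.0455, limma), 2 of 4 caseins against 6.86% of features. Both lie at the edge of the threshold. Without the replicate block the adjusted p was 0.0570 and 0.0529, and with animal as a fixed block 0.0547 and 0.0502, so that 0 were called in either fit. For CSN1S1 and CSN1S2, animal 1 at day +240 lay within the range of day -30. For CSN2 it was at 4.51, below all of day -30, where the lowest level was 4.84. In CSN3 the days did not overlap, which 7.56% of features shared.

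At the other days 0 of 4 caseins were called from day -30 by limma, and 0 by the ordinary linear model. The share of features called was 0.00497% at day -15, 6.24% at day +1, 6.37% at day +30, 3.76% at day +120 and 17.4% at day +180. At day -15 the changes lay between -0.16 and 0.48, and 0 caseins had an unadjusted p under 0.05. At day +1, CSN1S2 was at 2.95 ± 1.45 (adjusted p = 0.239) and was the only casein whose days did not overlap (7.1% of features), and 0 had an unadjusted p under 0.05. At day +30, CSN1S2 was at 3.35 (adjusted p = 0.159) and the only casein with an unadjusted p under 0.05, with animal 3 low.

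On the late days animal 4 went against the rest. At day +120 the changes lay between 0.54 for CSN2 and 2.56 for CSN1S2, with CSN3 alone at an unadjusted p under 0.05, and at day +180 between 0.14 for CSN2 and 2.31 for CSN1S2, with 0. Animals 1 to 3 were higher than at day -30 for each casein on both days and animal 4 was lower. Without these 2 arrays, a choice that raises both means by construction and supports no call, all 4 caseins were called higher on both days, between 2.77 for CSN3 and 4.56 for CSN1S2 at day +120 and between 2.30 for CSN2 and 4.26 for CSN1S2 at day +180.

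**Figure D3:**
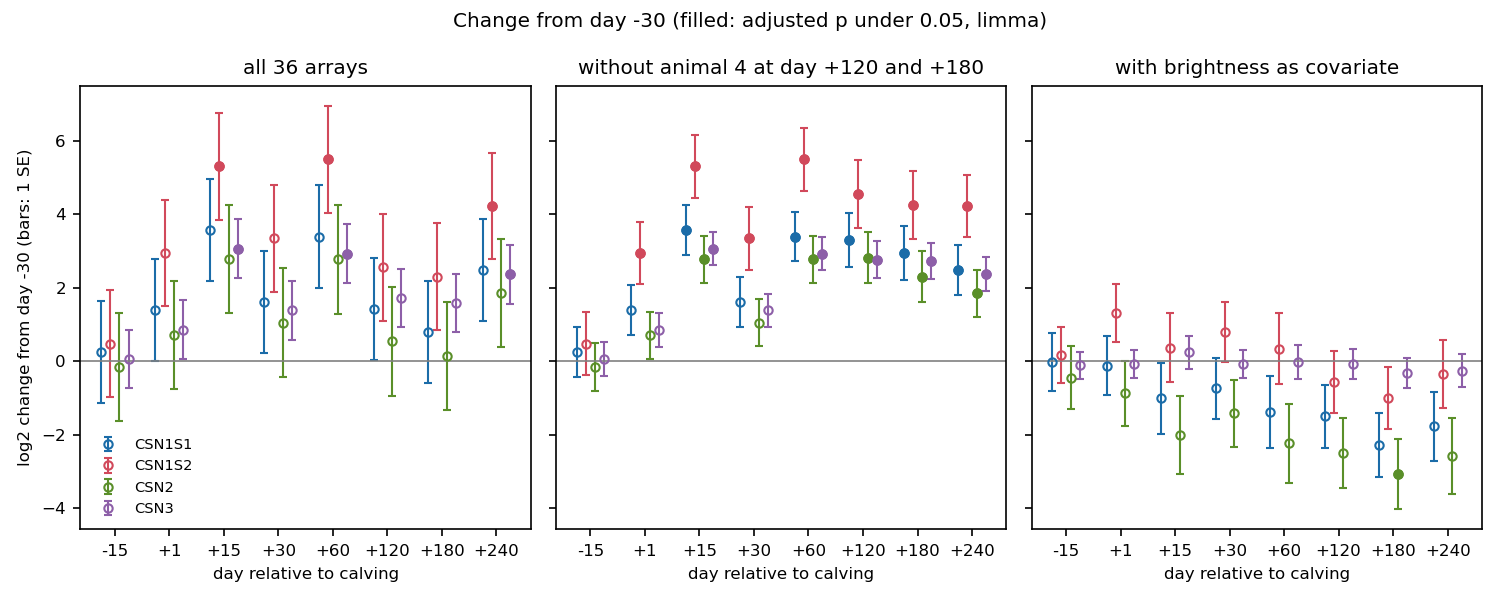
Log2 change of each casein from day -30 (y axis, bars 1 SE) by day relative to calving (x axis) in 3 fits with limma: all 36 arrays, without animal 4 at day +120 and +180, and with array brightness as covariate. Filled points passed an adjusted p under 0.05. With all arrays these were CSN1S2 and CSN3 at day +15, +60 and +240, and with the covariate only CSN2 at day +180, lower. Without animal 4 at day +120 and +180, each casein passed at day +15, +60, +120, +180 and +240, and 1 casein at day +1 and at day +30. Those arrays were left out for their low casein.

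The steps around calving were tested as well. From day -15 to day +1 the changes were 1.13 for CSN1S1, 2.47 for CSN1S2, 0.87 for CSN2 and 0.80 for CSN3, and 0 of 4 were called (1.79% of features) or had an unadjusted p under 0.05. CSN1S1, CSN1S2 and CSN3 nevertheless had no overlap, as 7.05% of features did, and in a fit of these 8 arrays alone 3 of 4 caseins were called. From day +1 to day +15 the changes were 2.18, 2.36, 2.07 and 2.21 in the same order, higher in 4 of 4 animals and without overlap (10.6% of features) for each casein. Limma called 0 of 4 (0.318% of features), with CSN3 alone at an unadjusted p under 0.05, and all 4 in a fit of these 8 arrays alone. From day +60 to day +240 the changes were -0.91, -1.27, -0.92 and -0.56, with 0 of 4 called (2.18% of features) and 0 at an unadjusted p under 0.05. Day +240 was higher than day +60 in 0 of 4 animals for CSN1S2 and in 1 of 4 for each other casein. Without animal 1 the changes were -0.04, -0.16, -0.11 and -0.17. That animal was low at day +240, so leaving it out itself makes the falls smaller. The ordinary linear model called 0 in each of these comparisons.

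The caseins did not change by equal amounts. On the same array, the log2 difference CSN1S2 minus CSN1S1 lay between -3.12 and -1.40 on the 8 pregnancy arrays and between -1.29 and 0.25 on the 28 lactation arrays, without overlap. Its mean shifted by 1.54, upward in 4 of 4 animals (1.19 to 2.10 per animal; exact two-sided permutation within animals, p = 5.95e-07, the smallest it can give, adjusted p = 1.79e-06 over 6 pairs). By day its mean was -2.20 and -1.98 in pregnancy, -0.64 at day +1, -0.46 at day +15, -0.10 at day +60 and -1.05 at day +120.

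The other pairs were tested in the same way. CSN2 lost against CSN1S2, by -2.02 (0 of 4 animals upward, adjusted p = 1.79e-06, exact permutation), and by a smaller amount against CSN1S1, by -0.48 (0 of 4 upward, adjusted p = 0.00489, exact permutation). This last call ended with the mean of all probes (-0.29, adjusted p = 0.0843, exact permutation) and without animal 2 (-0.43, adjusted p = 0.0553, exact permutation). CSN3 lost against CSN1S2 by -1.54 (0 of 4 upward, adjusted p = 0.00489, exact permutation), which without animal 2 was not called (adjusted p = 0.0923, exact permutation). The pair CSN3 minus CSN1S1 was at -0.01 (-0.74 to 0.78 per animal, adjusted p = 0.992) and CSN3 minus CSN2 at 0.47 (-0.14 to 1.65 per animal, adjusted p = 0.310), and neither exact permutation test passed. These tests exchange days within each animal separately, although the 4 arrays of a day share a slide. When whole days were exchanged for all animals together, which allows 36 arrangements, the 4 pairs called above each had the smallest p this can give, 0.0278 (adjusted p = 0.0417 over 6 pairs, exact permutation).

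A within-array difference is free of the scaling of the array but not of the scanner's range. At day -30 the CSN1S2 spots lay at 1.43% to 11.5% of the saturation value and those of CSN3 at 23.7% to 38.3%, whereas at day +15 they lay at 43.4% to 60.1% and 80.3% to 86.7%. The part of the scanner's range in the unequal changes was not tested. With brightness as covariate the change of CSN1S2 minus CSN1S1 was 1.29, that of CSN2 minus CSN1S2 -1.92 and that of CSN3 minus CSN1S2 -0.067. Under the samples of the scanner files CSN1S2 minus CSN1S1 shifted by 0.80 (adjusted p = 0.0675, exact permutation), and 0 of 6 pairs passed. The days before calving in that record include columns of day +1, so these values compare other periods than the table's.

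**Figure D4:**
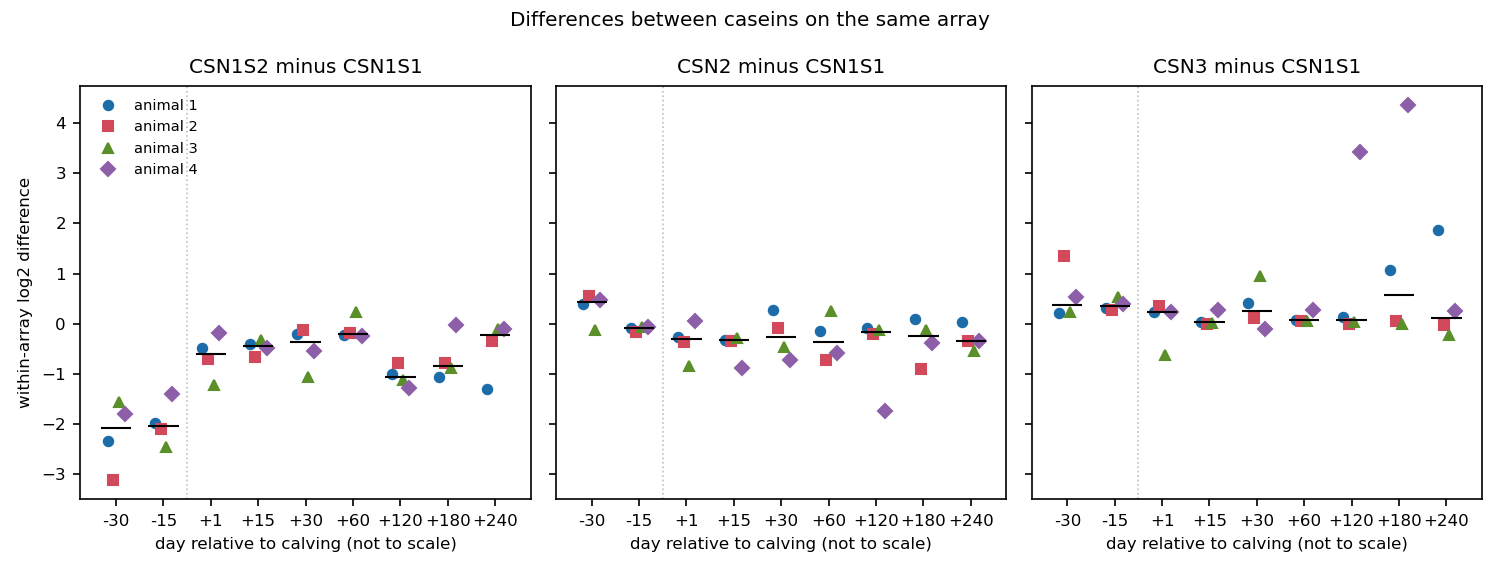
Within-array log2 differences of CSN1S2, CSN2 and CSN3 from CSN1S1 (y axis) by day relative to calving (x axis), 1 point per animal, bars at the median of 4. For CSN1S2 all 28 arrays after calving lie above the 8 before it, and for CSN3 the arrays of animal 4 at day +120 and +180 stand out at 3.43 and 4.36.

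Of the 4 arrays with low casein, each was the brightest of its day, at a 75th percentile of 5698 (animal 3, day +30), 6450 (animal 4, day +120), 4357 (animal 4, day +180) and 3883 units (animal 1, day +240). On those of animal 4 the processed signal of CSN1S1 was 10934 and 2812 units, that of CSN2 3273 and 2162 and that of CSN3 117447 and 57896, so these arrays were bright overall and dim for caseins. The scanner files that match these 2 columns are deposited as animal 1 at the same days. The 2 arrays had a mean log2 level of -1.97 and -1.56 over 12 other milk proteins, while the other lactation arrays did not go below 0.71. Their luminal markers averaged 1.59 and 1.65 and their fibroblast markers 3.39 and 3.47, against ranges over all lactation arrays of 0.79 to 3.39 and 1.29 to 3.65. Their leukocyte markers averaged 0.22 and 0.59, the latter the highest of the 28 lactation arrays, and their hormone signalling genes -0.83 and -1.06, the lowest of lactation.

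Fitted one by one among 34997 probes, the 5 probes of CSN1S2 changed by 2.97 to 3.50 between pregnancy and lactation and 5 of 5 were called, and both probes of CSN3 changed by 1.95 and 1.96 and were called. The 6 probes of CSN1S1 lay between 1.51 and 1.96 and the 5 of CSN2 between 1.41 and 1.72, with 0 called (limma, lowest adjusted p = 0.0523 and 0.137). Each probe correlated with the chosen one of its gene at r of 0.987 or more over the 36 arrays, which share library and scaling. Of the 144 casein values, 15 came from spots that the scanner software had marked as out of line.

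The other genes of casein production were taken from lists of known roles, and each count is read beside the share of all features called higher (16.8%) or lower (19.2%) in lactation against pregnancy. Of 12 other milk proteins, 9 rose and 0 fell, with a median change of 1.95 against -0.04 over all features. They included LPO, the lactoperoxidase of milk, by 7.83 ± 1.12, CRISP3, a secreted cysteine-rich protein, by 5.79 ± 0.93, LALBA, the alpha-lactalbumin of lactose synthesis, by 3.18 ± 1.08, and CD14, a receptor for bacterial lipopolysaccharide, by 2.90 ± 0.29 (SE, limma, adjusted p = 0.0217 for LALBA). LPO was well above background on 34 of 36 arrays, with a mean level of -5.55 in pregnancy. PAEP, the beta-lactoglobulin of ruminant milk, was at 1.26 ± 0.62 (adjusted p = 0.111). With the brightness covariate LPO at 3.15, CD14 at 1.70, CRISP3 at 2.43 and LTF at 1.93 were called higher. LALBA at -1.13 and PAEP at -1.18 were not called. BTN1A1 at -4.06 (adjusted p = 0.0023) and GLYCAM1 at -2.30 (adjusted p = 0.0349, limma) were called lower, and neither was called without the covariate.

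Calcium and zinc supply came next. Of 15 measured genes 9 rose and 1 fell, with a median of 0.73. ATP2B2, the calcium pump of the apical membrane in mouse mammary cells, rose by 4.53 ± 0.50, PTHLH, the parathyroid hormone-related protein that the lactating gland secretes, by 4.19 ± 0.51, SLC30A2, a zinc exporter, by 2.40 ± 0.80, and SLC34A2, a sodium-phosphate cotransporter, by 2.25 ± 0.74 (limma, highest adjusted p of the 4 = 0.0199). ATP2B4, another plasma membrane calcium pump, fell by 0.42 ± 0.15 (adjusted p = 0.0296). With the brightness covariate ATP2B2 at 2.51 and PTHLH at 2.12 stayed called. SLC30A2 at -0.71, SLC34A2 at -0.67 and ATP2B4 at -0.14 were not called in that fit. ATP2B2 was well above background on 31 of 36 arrays, with a mean level of -6.71 in pregnancy.

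Genes that modify caseins were counted next. Of 12 genes of phosphorylation and glycosylation, 6 rose and 1 fell, with a median of 0.44. FAM20C, the Golgi kinase that phosphorylates caseins, rose by 1.21 ± 0.25 (adjusted p = 0.000470, limma), and GALNT3, which starts O-glycans, by 1.09 ± 0.26 (adjusted p = 0.00196). ST6GALNAC2, a sialyltransferase, rose by 0.69 ± 0.12 and GCNT1, which branches O-glycans, fell by 0.82 ± 0.29 (adjusted p = 0.0302). With the brightness covariate FAM20C was at 0.45 (adjusted p = 0.235), GALNT3 at 0.32 (adjusted p = 0.446) and GCNT1 at -0.31 (adjusted p = 0.590), none called, and ST6GALNAC2 at 0.88.

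Of 18 genes of hormone signalling to the casein genes, 4 rose and 0 fell, with a median of 0.09. These were ELF5, a transcription factor of secretory differentiation, by 0.92 ± 0.36 (adjusted p = 0.0431, limma), ESR1, an oestrogen receptor, by 0.65 ± 0.25, NFIB, a nuclear factor that binds milk protein promoters in mouse, by 0.62 ± 0.15, and PGR, the progesterone receptor, by 0.61 ± 0.23. ESR1 was well above background on 30 of 36 arrays, with a mean level of -6.06 in pregnancy. The prolactin receptor PRLR was at 0.04 ± 0.25 (adjusted p = 0.909) and STAT5A at -0.38 ± 0.23 (adjusted p = 0.199). With the brightness covariate ELF5 at -0.73 (adjusted p = 0.0021) and STAT5A at -1.11 (adjusted p = 0.000992, limma) were called lower. In the same fit ESR1 was at 0.47, PGR at 0.06 and NFIB at -0.029, none called. Of the listed genes near the casein cluster in mammals, 6 were measured, and 1 rose (STATH, a small salivary protein gene in human, by 2.90 ± 0.82, well above background on 20 of 36 arrays) and 1 fell (AMBN, an enamel protein gene, by 1.08 ± 0.43, on 22 of 36). Both directions turned with the brightness covariate, where STATH was at -0.065 (adjusted p = 0.965) and AMBN at 0.57 (adjusted p = 0.278), and neither was called.

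Markers of the cell types of the gland were counted in the same way. All 14 luminal markers were measured and well above background on every array, and 2 rose (ELF3 by 1.04 ± 0.33 and KRT19 by 0.98 ± 0.21) and 1 fell (ESRP2 by 1.42 ± 0.20), and KRT19 was at 0.18 (adjusted p = 0.495) with the brightness covariate. The log2 of the sum of their unlogged levels, called the summed level below, ran from 6.24 to 6.60 in pregnancy and from 6.11 to 8.29 in lactation. Of 9 myoepithelial markers 5 rose and 1 fell, led by OXTR, the oxytocin receptor of milk ejection, at 1.06 ± 0.25, with summed levels of 5.91 to 6.50 and 5.92 to 7.67.

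Of the markers of cells that make no casein, 0 of 8 for fibroblasts were called by limma, with summed levels of 6.11 to 6.60 in pregnancy and 5.03 to 7.52 in lactation. Of 7 adipocyte markers 1 rose (FABP4), of 8 endothelial markers 3 rose, led by VWF at 0.88 ± 0.17, and of 11 leukocyte markers 2 rose (S100A8 by 2.73 ± 0.63 and S100A9 by 1.63 ± 0.56) and 3 T cell genes, CD2, CD3D and CD3E, fell. With the brightness covariate FABP4 was at -0.12, CD2 at -0.30, CD3D at -0.23 and CD3E at -0.13, none called. Their summed levels in pregnancy and lactation were 3.75 to 4.95 and 3.57 to 6.76 for adipocytes, 3.12 to 3.94 and 3.70 to 5.57 for endothelial cells, and 4.11 to 4.38 and 4.12 to 5.78 for leukocytes. The part of cell mixture in the casein changes was not tested.

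**Figure D5:**
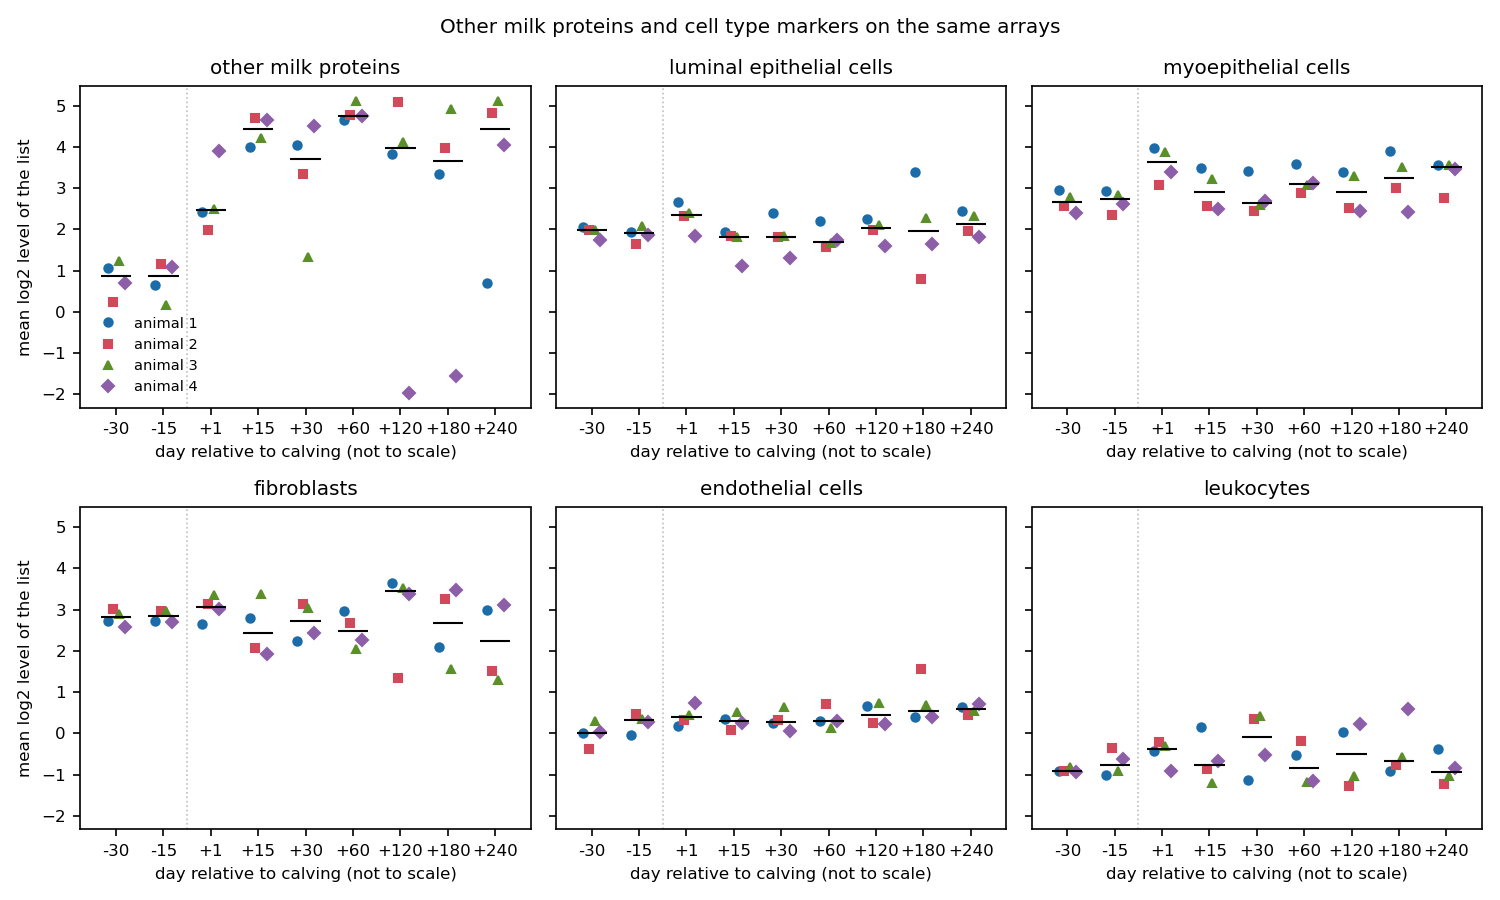
Mean log2 level of 6 gene lists (y axis) by day relative to calving (x axis), 1 point per animal, bars at the median of 4: other milk proteins and markers of luminal, myoepithelial, fibroblast, endothelial and leukocyte cells. The other milk proteins follow the caseins, with the arrays of animal 4 at day +120 and +180 at -1.97 and -1.56.

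Across the 36 arrays the caseins rose and fell together, with r between 0.90 (CSN2 and CSN3) and 0.98 (CSN1S1 and CSN2). As a description over arrays that share brightness and the low arrays, the named genes most like the mean of the 4 caseins were MUC1, a mucin of the milk fat globule membrane (r = 0.977), LALBA (0.971), PAEP (0.966), FAT3, a cadherin-related gene (0.963), and FOLR1, a folate receptor (0.956). They were followed by CIDEA, a lipid droplet protein (0.953), GP2 (0.951), GLYCAM1, a mucin-like milk protein (0.950), FAM134B (0.947) and SLC22A5, a carnitine transporter (0.946). In all, 57 of 20106 features had r over 0.9. Among the named genes closest to CSN3 was OAZ1, an ornithine decarboxylase antizyme (0.950), which was not among the 5 closest genes of any other casein.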

How the data were processed

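RNA from 36 biopsies (4 animals, 9 days) was measured on 1-colour Agilent cattle arrays. The authors scanned them with Feature Extraction 10.7.3.1, per the file headers, and deposited spot intensity values and quality marks of 0 or 1. The authors also deposited a log2 table of 34997 of 43653 probes, made with GeneSpring 12, per the labels; the probe filter is not given in the sources used here, and the authors' own tests ran in JMP Genomics 7. Each column was matched to the scanner file from which it differs by a constant (SD of the difference at most 0.00198, next file 0.385 or more).

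The table was reduced to 1 probe per symbol, that with the highest mean. Limma 3.58.1 (R 4.3.3) fitted day as a factor and animal as a random block (consensus correlation 0.0531), two-sided, Benjamini-Hochberg over 20110 features, called at adjusted p under 0.05. The pairing comes from the labels: a number is an animal. Deviations from day means correlated at 0.156 on average within an animal and -0.0523 between animals, and 33 of 36 arrays were closest to their own animal. Position on the slide equals animal on every day, so these cannot be told apart. The code was tested on simulated data. Pairs of caseins were tested by exact permutation of days within animals (1679616 arrangements) and, as an added alternative, of whole days. Figures and tables used Python 3.11.15.

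The members and the gene lists were chosen with earlier results of these data known. Named are the caseins, up to 4 called genes per list with the largest change, and the 10 most like in pattern. PRLR, STAT5A, ATP2B4, CD3E, OAZ1, LTF and BTN1A1 fall outside this rule and were chosen after their values were seen. Spots marked as out of line have values in the table and were kept. The number of arrays limits the precision. Alternatives covered the array record, block, test, scaling, background, dim probes, probe choice, brightness, animals and arrays in the fit.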

Additional observations from a re-analysis of the deposited data

Results flagged for a closer look

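Among 36 groups of 4 arrays (4 caseins on 9 days), 2 held an array that stood apart from the rest of its day by more than Dixon's test allows at its 5% level, which chance alone gives in about 1 of 20 groups. Both are the array of animal 4 at day +120. CSN1S1 was at 0.76 there, with the next animal at 7.70, and CSN2 was at -0.98, with the next at 7.58. On that array CSN1S2 and CSN3 were also the lowest of the day, at -0.52 and 4.19, and did not pass the same limit. The array was the brightest of the 36, with a 75th percentile of 6450 units, and the part of its brightness in the low values was not tested.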

How the results depend on the processing

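With all arrays limma called 2 caseins (CSN1S2 and CSN3) in the F test, at day +15, +60 and +240 against day -30, and in lactation against pregnancy, and 0 in the other comparisons. Of 142 values of the 8 called changes of single caseins under other settings, 138 were higher and 100 were called. Under the record of the scanner files, 0 were called in the F test, 0 at day +15, 2 at day +30, 1 at day +60, 0 at day +240 and 1 in lactation. The groups of that record mix days of the table. Its day +240 holds the columns of animals 1, 2 and 3 at day -30 and of animal 4 at day +240. Quantile normalization gave 0 in the F test, 1 at day +15, 1 at day +60, 0 at day +240 and 1 in lactation. The brightness covariate gave 0 in the F test, 0 at day +15, +60 and +240, and 1 lower at day +180 and in lactation. Without the replicate block, with a fixed replicate block, in the ordinary linear model, with normexp and with the mean of all probes, 0 were called at day +240. Arrays of the compared days only gave 2 at day +1, 4 at day +15, 1 at day +30, 4 at day +60, 3 from day -15 to +1 and 4 from day +1 to +15; this could not be run for lactation against pregnancy, which uses all days. Leaving out 1 animal gave 0 to 4 in the F test, 0 to 4 at day +15, 1 to 4 at day +60, 0 to 4 at day +120, 0 to 3 at day +180, 0 to 2 at day +240 and 2 to 4 in lactation.

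Other settings were chosen after seeing the data, and those that leave out low arrays chose them for low casein, so that their calls of higher casein are no independent support. Without scaling, 1 casein was called in the F test and 1 at day +240, and the median change of all features in lactation was -1.24 (0.15 with normexp, -0.04 as reported). Without the 2 arrays of animal 4 at day +120 and +180, 1 was called at day +1, 1 at day +30, 1 from day +1 to +15 and 4 in the F test, at day +15, +60, +120, +180, +240 and in lactation. Without all 4 low arrays, 2 were called at day +1, 1 from day -15 to +1, 4 from day +1 to +15 and 4 in the F test, at each day from +15 to +240 against day -30 and in lactation.

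Called changes of CSN3 and CSN1S2 turned sign under the brightness covariate and were not called there. These were CSN3 at day +60 (-0.026, adjusted p = 0.982) and +240 (-0.26, adjusted p = 0.789), CSN1S2 at day +240 (-0.36, adjusted p = 0.869) and CSN3 in lactation (-0.025, adjusted p = 0.964, limma). CSN2 was called lower under the covariate at day +180 (-3.07, adjusted p = 0.0171) and in lactation (-1.88, adjusted p = 0.0366, limma). Without the covariate CSN2 was called in neither (0.14, adjusted p = 0.960, and 1.49, adjusted p = 0.168, limma). A further 51 values changed sign with neither value called, 27 of them under that covariate. The cause was not tested.

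For pairs, the scanner record gave 0.80 for CSN1S2 minus CSN1S1, -0.11 for CSN2 minus CSN1S1, -0.91 for CSN2 minus CSN1S2 and -0.51 for CSN3 minus CSN1S2, none passing the exact permutation test (lowest adjusted p = 0.0675). The mean of all probes gave -0.29 for CSN2 minus CSN1S1 (adjusted p = 0.0843, exact permutation). Leaving out 1 animal gave -0.57 to -0.35 for CSN2 minus CSN1S1 and -1.92 to -1.11 for CSN3 minus CSN1S2, and both missed the threshold without animal 2. Without the 4 low arrays CSN3 minus CSN1S1 was -0.37 (adjusted p = 0.00856, exact permutation). Exchanging whole days, also chosen after seeing the data, kept the same 4 calls (adjusted p = 0.0417, exact permutation). With brightness as covariate, untested, CSN3 minus CSN1S1 was 1.22, CSN3 minus CSN1S2 -0.067 and CSN3 minus CSN2 1.85.

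Over all features, the F test called 8500, with 4370 under the scanner record, 4633 with normexp, 16336 without scaling and 2116 to 6324 without 1 animal. Lactation against pregnancy called 7246 (3378 higher, 3868 lower), with 4443 under the scanner record, 4680 with brightness (1442 higher, 3238 lower), 18208 without scaling (191 higher, 18017 lower), 5675 with normexp (3939 higher, 1736 lower) and 4267 to 5889 without 1 animal.

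The comparison of periods rests on 4 animals. All casein spots were well above background, so dimness did not limit them. Bright casein spots lay near the top of the scanner's range, day and slide cannot be told apart, and the 2 array records give different days.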
